A study of Mus musculus with 8 samples.

Results

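The Cd209a-led dendritic cells of irradiated and unirradiated MC38 tumors were examined, against the other tumor myeloid cells and across treatment and genotype. MC38 is a mouse colon carcinoma line. A cell barcode was taken as a member when it held 3 or more UMIs (unique molecular identifiers, each counting 1 captured transcript) over Flt3, Cd209a, Xcr1, Clec9a and Zbtb46, at most 5 UMIs over the complement genes C1qa, C1qb and C1qc, and fewer than 5 over Ccr7, Fscn1 and Cacnb3, which mark mature migratory dendritic cells. This rule found 216 cells among 13262 tumor barcodes that passed the quality filters, of 32121 over the whole series, which also held blood. It picked 118 of 5418 barcodes from control tumors and 98 of 7844 from irradiated tumors.

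The 4 groups were pools of tumors, each labelled in the study's methods as 5 mice, and the cells were sorted as CD45+CD11b+Ly6Chi before capture. Irradiated (IR) tumors had received 20 Gy in 1 dose, and their cells were collected 3 days later. All mice carried the floxed Ythdf2 allele (Ythdf2 flox/flox, C57BL/6J background), and animals 8 to 10 weeks of age were used. WT mice had no Cre, and in Ythdf2 cKO mice Cre was expressed from the Lyz locus (Lyz Cre), which is active in monocytes, macrophages and neutrophils and covers dendritic cells only in part. Genotype was read from hashtags, antibodies with an oligonucleotide tag, and gave 80 members labelled WT and 33 labelled cKO in control tumors and 45 and 48 in irradiated tumors. For 10 members, 5 in each library, the hashtags gave no genotype. Since each group was 1 pool, no value below has a replicate, no test between groups was possible, and every interval is a 95% interval that covers counting error only.

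Conventional dendritic cells take up antigen and present it to T cells on MHC class II. Their cDC1 branch bears Xcr1 and Clec9a and is known for cross-presentation to CD8 T cells, whereas the cDC2 branch, to which Cd209a and Clec10a are usually assigned, mainly engages CD4 T cells. In tumors, cells of monocyte origin can also take on Cd209a, together with Ly6c2 and Ccr2, and type I interferon acts on all of them through a receptor that turns on a common set of antiviral genes.

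The label of conventional dendritic cells was borne out only in part, so the cells are called Cd209a-led here. Cd209a (chr8:3743397-3748984, minus strand, mm10), a C-type lectin, had a UMI in 90.7% of members in control tumors and 95.9% in irradiated tumors. Flt3, the receptor for the growth factor of conventional dendritic cells, had a UMI in 33.9% and 22.4%, and Zbtb46, a transcription factor of that lineage, in 16.9% and 16.3%. Clec9a was seen in 13.6% and 9.18% and Xcr1 in 4.24% and 2.04%. The members were chosen by the UMI counts of these genes, of the C1q genes and of the mature genes, so these levels are a description and support nothing. Free RNA, read from barcodes with 1 to 100 UMIs, held Cd209a at 18.4 and 16.3 CPM, against 792 to 1321 CPM in the 4 groups of members. In C1q-low myeloid cells, at a median of 6084 and 5766 UMIs per cell against 7802 and 7668 in the members, Cd209a had a UMI in 2.10% and 0.899% of cells.

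The rule had near neighbours on both sides of its threshold. A sum of exactly 3 UMIs held 21 members in control tumors and 17 in irradiated tumors, and 38 and 27 barcodes stood just outside with a sum of 2. A sum of 10 or more was reached by 39 and 43 members. No C1q UMI was present in 93 and 82 members, and none held 4 or 5. UMIs of lymphocyte, fibroblast or carcinoma genes at the level that sets other cells apart were present in 6 and 3 members, and leaving these out kept every count of genes past the limit within 1.5 times its value.

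Before the results, 3 facts on the libraries touch every contrast below. The tumor control and tumor IR matrices shared cell barcodes: 12558 barcodes had 500 or more gene UMIs in both, and all 118 and all 98 members were among them. Members held a median of 0.460 (control) and 0.593 (IR) times as many gene UMIs in the other matrix as in their own, but 100 and 81 of them had no hashtag UMI there, against medians of 505 and 629.5 hashtag UMIs in their own. Treatment therefore rested on the hashtags. Leaving out the 4 and 5 members with hashtags in both matrices gave 48, 45, 20 and 10 genes past the limit in the 4 contrasts in place of 52, 50, 21 and 9, and the effects of treatment and of library cannot be told apart, since each treatment was 1 library.

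The targeted gene went against the genotype labels. Ythdf2 (chr4:132184912-132212303), which encodes an m6A reader, stood at 39.2 CPM (UMIs per 1000000 gene UMIs) in cells labelled WT and 154 CPM in cells labelled cKO in control tumors, and at 27.8 and 94.0 CPM in irradiated tumors. It was thus higher in the cells labelled cKO, by 1.92 on the log2 scale (interval 1.25 to 2.72; 26 and 46 UMIs) and by 1.67 (0.72 to 2.93; 10 and 37 UMIs). The other myeloid cells had the same order, with log2 ratios of 1.54 to 3.08. Whether these 3′ reads lie inside the deleted part is not stated in the sources used here, so the reads check the labels only in part. Lyz2 (chr10:117277331-117282321), the lysozyme gene whose locus carries the Cre, went the other way, with 4335 and 104 CPM in control tumors and 2447 and 25.4 CPM in irradiated tumors. Free RNA held Lyz2 at 3122 and 2969 CPM, far above the level in cells labelled cKO. Lyz2 was low where the cKO hashtag was high, while Ythdf2 did not follow its label, and "labelled WT" and "labelled cKO" are used throughout.

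**Figure D1:**
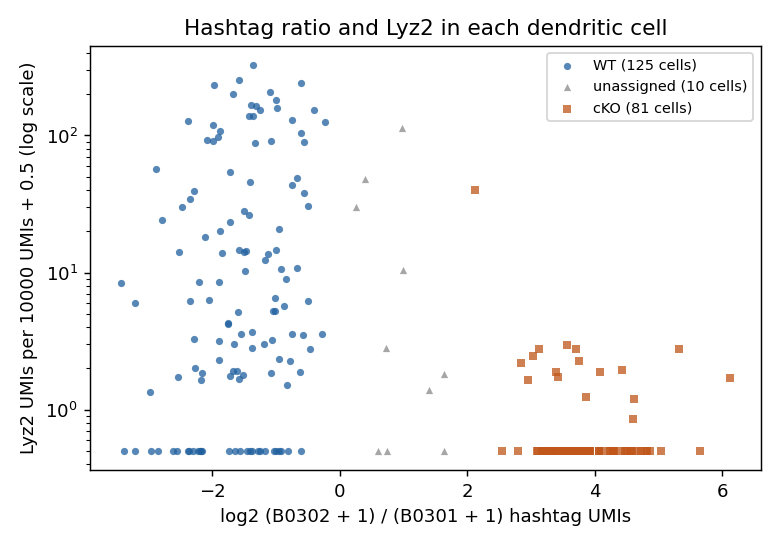
Lyz2 level of each dendritic cell (UMIs per 10000 gene UMIs plus 0.5, log axis) against the log2 ratio of its cKO hashtag (B0302) to its WT hashtag (B0301) on the horizontal axis, colored by the label given to the cell. Cells with a ratio above 3 carried almost no Lyz2, and cells below 0 covered the whole range, some with none.

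Among members, Lyz2 was at 30.1 CPM in the 48 cells whose log2 hashtag ratio lay between 3 and 4 and at 33.8 CPM in the 28 above 4. In the 5 cells between 2 and 3, also labelled cKO, it stood at 641 CPM, with 18 of the 20 UMIs in 1 cell. The 10 cells between 0 and 2, which had no genotype, held 2327 CPM of Lyz2. Lyz2 reached 5167 CPM in the 62 cells between -2 and -1 and 1318 CPM in the 33 cells below -2. The WT hashtag was weak on these cells: the median log2 ratio of cKO to WT hashtag in cells labelled WT was -1.14 in control and -2.16 in IR members, against -1.64 and -2.51 in C1q-low cells. Any rule that asks for a wide hashtag margin thus removes members labelled WT more than other cells.

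By share, the dendritic cells were few in every group, and the highest share was in unirradiated tumors of mice labelled WT. They made up 3.49% of the tumor myeloid cells labelled WT in control tumors (80 of 2292, exact interval 2.78 to 4.33) and 1.44% in irradiated tumors (45 of 3133, 1.05 to 1.92). In cells labelled cKO they made up 1.81% (33 of 1823, 1.25 to 2.53) and 1.31% (48 of 3667, 0.967 to 1.73). The share was lower after IR by 2.05 percentage points in cells labelled WT (difference -2.05, interval -2.96 to -1.22) and differed by -0.501 points (-1.29 to 0.167) in cells labelled cKO. In control tumors the cells labelled cKO stood 1.68 points below those labelled WT (difference -1.68, -2.66 to -0.691), and in irradiated tumors the difference was -0.127 points (-0.704 to 0.428). These shares follow the CD11b+Ly6Chi gate, which selects against dendritic cells without Ly6C, and the hashtag rule. With a wide hashtag margin the WT change with IR was -0.0598 points and the control difference between genotypes turned to 0.759, and thinning each cell to 3000 UMIs gave -0.955 and, for IR in cells labelled cKO, 0.388.

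**Figure D2:**
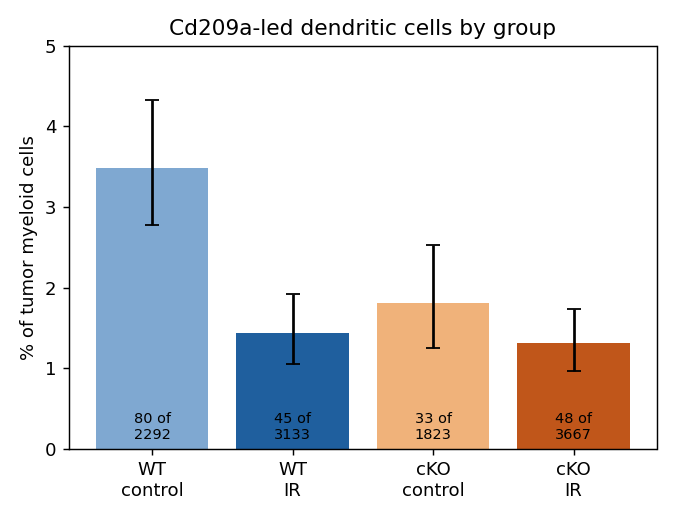
Share of the dendritic cells among tumor myeloid cells (percent, vertical axis) in the 4 groups, 1 pool each, with exact 95% intervals for counting error. The value for control cells labelled WT, 3.49%, lies above the 3 others, which range from 1.31% to 1.81% with overlapping intervals.

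Within the members the Cd209a cells prevailed. A gate on 2 or more UMIs of Cd209a, after setting aside cells with 2 or more UMIs of Xcr1 and Clec9a together, held 195 of 216 members (90.3%). It held 73 of 80 and 25 of 33 members in control tumors labelled WT and cKO, and 42 of 45 and 45 of 48 in irradiated tumors. The Xcr1 and Clec9a gate held 16 cells: 5 and 6 in control tumors labelled WT and cKO, and 3 and 2 in irradiated tumors. The share of this gate was 18.2% (6.98 to 35.5) in control cells labelled cKO and 6.25% (2.06 to 13.99) in control cells labelled WT, with intervals that overlap.

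The 16 cells of the Xcr1 and Clec9a gate carried some genes of the cDC1 branch that the gate did not use. Of the 10 genes on the cDC1 list, Wdfy4, Batf3, Irf8, Id2 and Naaa are given here. Cadm1, Itgae, Tlr3, Snx22 and Ifi205 are not given, and Cst3 is not on the list. Wdfy4, needed for cross-presentation, stood at 512 CPM against 87.5 CPM in the Cd209a gate (100 and 138 UMIs), a log2 ratio of 2.53, and had a UMI in 14 of the 16 cells. Batf3, Irf8 and Id2, transcription factors of cDC1 development, were higher by 1.54, 1.54 and 2.38 on the log2 scale. Naaa, a lysosomal amidase, was higher by 2.12, and Cst3, a cysteine protease inhibitor that dendritic cells make in quantity, stood at 32700 against 6066 CPM. These values describe the gates and test nothing. In the other direction, Irf4, a factor of the cDC2 branch, had 0 UMIs in the 16 cells and 94 in the 195. Sirpa, a cDC2 surface receptor, had 4 and 211 UMIs, Cd209d 2 and 222, and Lyz2 67 and 3947. Cxcl10, a chemokine for T cells, had 4 and 3977, and Ifit3, an antiviral interferon target, 1 and 260. These are UMIs of 16 and 195 cells. Scaled to depth, Cd209d stood at 10.2 and 141 CPM, Cxcl10 at 20.5 and 2523 CPM and Ifit3 at 5.12 and 165 CPM. The gates also differ in their mix of hashtag labels and treatments, whose part in these values was not tested.

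A few deep cells of this gate carried much of 1 group. In control tumors labelled cKO the 2 deepest members, with 28587 and 27613 gene UMIs, both belonged to the Xcr1 and Clec9a gate and held 18.8% of the group's UMIs. They held 1235 and 1077 of its 5043 Cst3 UMIs and 71 and 26 of its 167 Hmgb2 UMIs. In the other 3 groups the 2 deepest members held 5.69% to 8.22%.

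Against the other tumor myeloid cells, the dendritic cells carried more transcripts of MHC class II genes and of several lectin-like receptors, and fewer of most macrophage genes. The other cells were the C1q-high, C1q-low and Ccr7-positive myeloid cells together. Of 7438 genes outside the rule with 100 or more UMIs over both kinds of cell in every group, 103 (1.38%) were higher in the dendritic cells by a log2 ratio of 1 or more in all 4 groups, and 471 (6.33%) were lower. The rule was set on genes of these cells, so nothing is read from these counts. The median log2 ratio over all measured genes was -0.08, -0.12, -0.08 and -0.07 in control cells labelled WT and cKO and IR cells labelled WT and cKO, an order kept below.

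Klrd1 (chr6:129591782-129598775, plus strand) had the largest minimum ratio over the 4 groups among the 7438 genes. This gene encodes CD94, a lectin-like receptor best known from natural killer (NK) cells. It stood at 272, 237, 431 and 414 CPM in the dendritic cells, with log2 ratios of 4.08, 4.27, 4.69 and 4.61 against other myeloid cells at 12.2 to 16.9 CPM. Klrb1b and Klrk1, 2 further lectin-like receptors of that family, had ratios of 2.13 to 2.66 and 1.88 to 3.30. The Ccr7-positive dendritic cells, counted among the other myeloid cells, shared these genes, with Klrd1 at 211, 143, 238 and 208 CPM and Klrk1 at 186, 270, 338 and 290 CPM. The 5-gene NK list, by contrast, held 1, 0, 1 and 79 UMIs, of which 60 of the 79 were Gzma UMIs from 2 cells of the irradiated cKO group, and the 6-gene T cell list held 0, 1, 0 and 3. The part of contaminating NK cells in the Klrd1 signal was not tested in that group. In the other 3 groups the defining genes were at or near 0.

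Other genes with high ratios in all groups were Clec10a, Plet1, Ckb, Ifitm1 and Tmem176b. Clec10a, a galactose lectin of cDC2 and some macrophages, stood at 332, 231, 459 and 480 CPM against 20.1 to 29.1 CPM in other myeloid cells. Clec10a is on the cDC2 list, of which 6 genes were measured, with 2 higher and 2 lower by the limit in all 4 groups. Of 6 measured cDC1 genes 1 was higher and 1 lower, and of 3 common ones 1 was higher and 0 lower. Beside these, 1.38% of all genes were higher and 6.33% lower. Ifitm1, an interferon-induced membrane protein, stood at 1565, 1381, 2266 and 2639 CPM, with ratios of 2.05 to 2.57. The Ccr7-positive dendritic cells shared it as well, at 1158 to 1395 CPM. They held Tmem176b at 341, 397, 240 and 212 CPM, against 254, 237, 197 and 206 CPM in the members. Plet1, a GPI-anchored surface protein, was carried by few cells, between 14.6% and 30.3% of members, at 257, 595, 531 and 173 CPM. The Ccr7-positive cells held Plet1 at 74.4, 222.5, 465 and 223.5 CPM. The same 15-gene ranking held P2ry10, Tnni2, Vrk1, Tmem176a, Tmem238 and 1700025G04Rik, with smallest ratios from 1.94 to 2.29. P2ry10 stood at 161.5, 164, 120 and 132 CPM in the members and at 105, 167, 174 and 158 CPM in the Ccr7-positive cells. For Tmem176a these levels were 160, 134, 108.5 and 130 CPM and 260, 373, 211 and 203 CPM. Tnni2, Vrk1, Tmem238 and 1700025G04Rik were lower in the Ccr7-positive cells than in the members in every group.

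**Figure D3:**
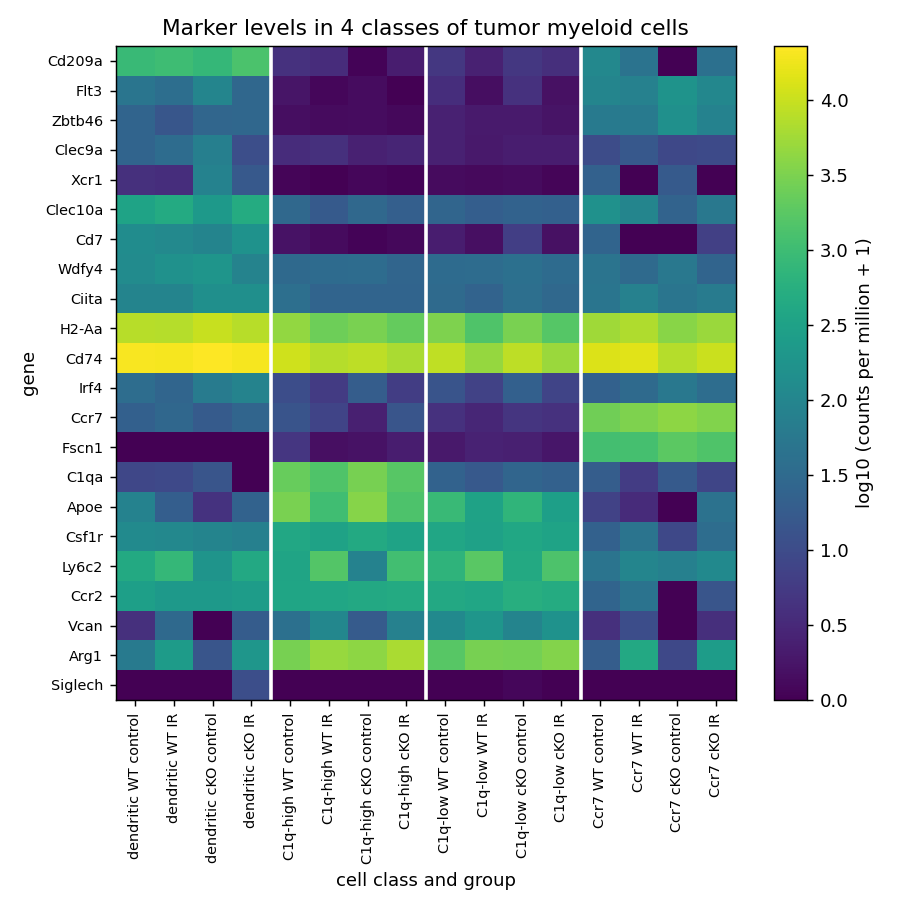
Level of selected genes (rows, color as log10 of CPM + 1) in the dendritic cells and in the C1q-high, C1q-low and Ccr7-positive myeloid cells, each split by hashtag label and treatment (columns). The dendritic cells carry Cd209a, Clec10a and MHC class II genes at high level and macrophage genes at low level in all 4 groups.

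As sums over each group, MHC class II genes were higher in the dendritic cells than in other myeloid cells. Of the 10 genes listed, 9 were measured and 7 were higher by the limit in all 4 groups, beside 1.38% of all genes, with list medians of 1.05, 1.65, 2.03 and 2.01 beside all-gene medians near 0. H2-Aa, an MHC class II chain, stood at 7948, 9721, 7623 and 7850 CPM against 3351, 3089, 1432 and 1647 CPM in C1q-low cells, 4460, 3077, 2529 and 2159 CPM in C1q-high cells and 5421, 3925, 7014 and 5109 CPM in the Ccr7-positive cells. H2-Oa, a regulator of peptide loading, had ratios of 2.56, 3.53, 3.01 and 3.05. It stood at 52.8, 66.9, 58.4 and 55.9 CPM in the members and at 43.4, 47.7, 125 and 61.0 CPM in the Ccr7-positive cells. Ciita, the master regulator of these genes, had ratios of 1.39, 2.34, 1.87 and 2.41. The dendritic cell level moved little with treatment: the sum over the list differed by -0.05 after IR in cells labelled WT and by -0.26 in cells labelled cKO, on the log2 scale. In the other myeloid cells the same sums differed by -0.74 and -0.47. Single members varied widely. Per 10000 gene UMIs, the list held medians of 505, 536.5, 440.5 and 478 UMIs in a member, with lowest values of 9.58, 192, 17.5 and 16.7. The 28 control members labelled WT with most Lyz2 had H2-Aa at 4448 CPM, near the C1q-high level.

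Macrophage genes were low. All 10 of the list were measured, 8 were lower by the limit in every group, beside 6.33% of all genes, and the list medians were -2.65, -5.29, -3.24 and -3.45. Apoe, a lipid carrier of macrophages, stood at 86.0, 3.34, 19.5 and 22.9 CPM. Ms4a7, a membrane protein of macrophages, had 3, 0, 0 and 1 UMIs. Of the genes tied to suppression, 7 of 8 measured were lower by the limit in all groups, with Arg1, which breaks down arginine, at 58.9, 13.4, 248 and 193 CPM. The neutrophil list had 3 of 3 measured genes lower, and 5 of 12 chemokines and 5 of 10 measured hypoxia and glycolysis genes were lower, all beside the same 6.33%. None of 16 measured interferon genes was past the limit in all groups in either direction.

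Monocyte genes were lower than in other myeloid cells for 4 of 10 members of the list, beside 6.33% of all genes, but were not absent. Ly6c2, which the sort antibody targets as Ly6C, had a UMI in 53.8%, 48.5%, 57.8% and 52.1% of members, at 438, 181, 812 and 434 CPM. Ccr2, the receptor that brings monocytes into tissue, had a UMI in 68.8%, 66.7%, 64.4% and 58.3%. Kmo and Cd7, which were 1 member each of the common and cDC2 lists, had 53, 23, 31 and 55 UMIs and 86, 28, 41 and 66 UMIs. Il12b, which encodes the shared p40 chain of IL-12, had no UMI in any group. The floor used for a count of 0, 3 UMIs in the group, stands at 4.53, 10.03, 8.34 and 7.62 CPM, and the Ccr7-positive cells held Il12b at 263 to 651 CPM.

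Lyz2 divided the members labelled WT. In control tumors 14 of 80 had no Lyz2 UMI, 38 were below 20 UMIs per 10000 and 28 were at 20 or more, with 15 cells between 10 and 40. The 14 cells without Lyz2 had Ly6c2 at 479 CPM and H2-Aa at 9357 CPM. The 28 cells at 20 or more had Ly6c2 at 770 CPM and H2-Aa at 4448 CPM. The 38 cells below 20 had Ly6c2 at 164 CPM and H2-Aa at 10010 CPM, and Cd209a stood at 974.9 and 902.2 CPM. In irradiated tumors the 13 cells at 20 or more had Ly6c2 at 1383 CPM and H2-Aa at 4693 CPM, the 18 below 20 had 333 and 8609 CPM, and the 14 without Lyz2 had 912 and 8837 CPM. In both libraries H2-Aa was thus lowest in the cells with most Lyz2, while Ly6c2 was lowest in the cells with little Lyz2 and not in those with none. The cut at 20 is a cut through a range.

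Irradiation was compared with control in cells labelled WT over 1444 genes with 100 or more UMIs in both groups together, with a call at a log2 ratio of 1 or more. It gave 48 genes higher (3.32%) and 4 lower (0.277%). All 52 intervals left out 0, which the limits on UMIs and on the ratio make likely in advance. Without the highest cell of each gene, 35 of the 52 stayed past the limit. Here and below, the highest cell was left out of the higher group only, and the lower group kept all its cells. This step can therefore only shrink a ratio or turn its sign. The higher genes were led by antiviral interferon targets. Ifit3 (chr19:34583531-34588731) had 12 UMIs in control and 136 in IR members, 18.1 and 378 CPM, a log2 ratio of 4.24 (3.53 to 5.37), with a UMI in 7.5% of control and 42.2% of IR members. Rsad2, which encodes viperin, went from 34.7 to 673 CPM (4.202), Ifit2 from 30.2 to 428 CPM (3.74) and Ifit1 from 39.2 to 367 CPM (3.16). Isg15, a ubiquitin-like modifier (chr4:156199424-156200818), went from 306 to 1847 CPM (2.58) and was present in 62.5% and 91.1% of members. Free RNA held Isg15 at 1149 and 1672 CPM and Ifit3 at 98.9 and 161 CPM in the control and IR libraries. Its part in these values was not tested. Isg20, an exonuclease, had a ratio of 2.45.

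Of the 4 lower genes, Nupr1, a stress-responsive regulator, stood at 140 and 52.8 CPM (-1.38), Mcemp1 at 267 and 108 CPM (-1.28), Adgre5 at 164 and 75.1 CPM (-1.11) and Tsc22d3, a glucocorticoid-induced gene, at 210 and 100 CPM (-1.05). Each of these ratios stands on 19 to 39 UMIs in the IR group. Bri3bp and Glrx3 followed below the limit, at -0.96 and -0.93.

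In cells labelled cKO the same treatment gave, over 1018 genes, 43 higher (4.22%) and 7 lower (0.688%). Ifit3 had 3 UMIs in control and 102 in IR members, 10.03 and 259 CPM, a log2 ratio of 4.34 with an interval of 3.103 to 6.99. Rtp4, a receptor transport protein induced by interferon, had a ratio of 2.72 (33.4 to 236 CPM), Isg15 2.68 (264 to 1712 CPM) and Irf7, the regulator that amplifies interferon production, 2.68 (70.2 to 465 CPM). Ifit2 had 2.29 and Slfn5 1.90. The lower genes were led by Hmgb2, a chromatin protein of cycling cells, at -2.06, then Plet1 at -1.77, Cst3 at -1.51, the chemokine Ccl17 at -1.25, Fdps of the sterol pathway at -1.15 and Bcl2a1d at -1.10. For Hmgb2 1 control cell held 71 of 167 UMIs, and without the highest cell the ratio was -1.26. Within the Cd209a gate alone Plet1 turned to 1.28, Cst3 to 0.06 and Ccl17 to 0.24. This gate also leaves out the few members that fall in neither gate, and which cells set these 3 values was not tested. Within this gate the count of genes past the limit in this contrast was 24 in place of 50.

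The IR contrasts share no cells but come from the same 2 libraries, and their lists of higher genes overlapped. Among 1016 genes measured in both, 29 were higher in cells labelled WT and 43 in cells labelled cKO. The 21 in common were 72.4% of the former and 48.8% of the latter. Over all genes measured in each contrast, 3.32% were higher in cells labelled WT and 4.22% in cells labelled cKO. None of the 1016 was lower in both. Shared genes such as Ifit3, Ifit2 and Rtp4 had 3, 15 and 10 UMIs in control cells labelled cKO. They passed the limit on UMIs mainly through the IR group, so the overlap is partly fixed by this limit and supports nothing. The 21 were Cxcl10, Fcgr1, Ier3, Ifi203, Ifi204, Ifi209, Ifi27l2a, Ifit2, Ifit3, Irf7, Irgm1, Isg15, Ly6a, Mndal, Ms4a4c, Phf11b, Rtp4, Slfn5, Snx2, Sp100 and Trim30a. Without the highest cell of each gene, 15 of the 21 stayed past the limit in both. Cxcl10 went from 993 to 4561 CPM (2.20) and from 1240 to 2723 CPM (1.13) in cells labelled WT and cKO. Fcgr1, the high-affinity Fc receptor CD64, had ratios of 1.57 and 1.87.

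**Figure D4:**
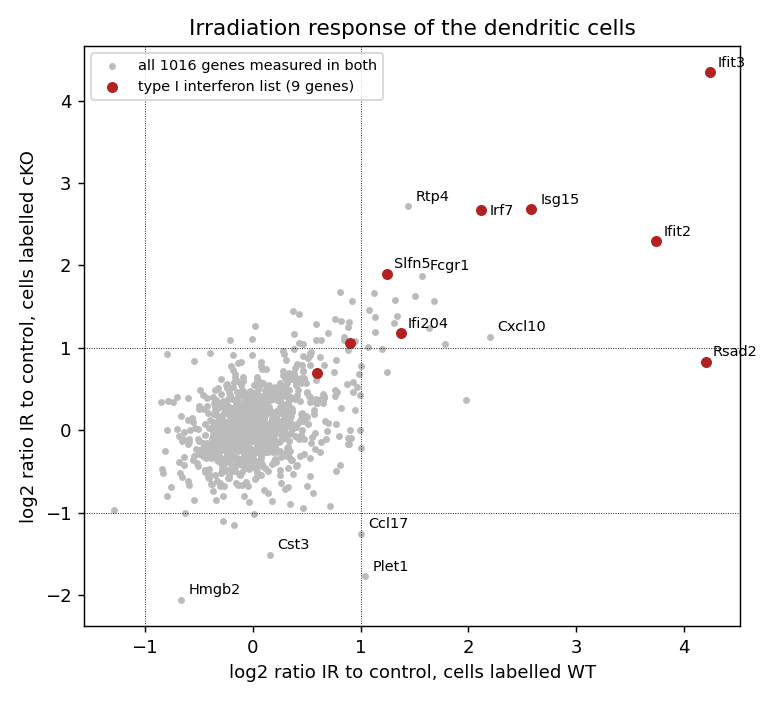
Log2 ratio of IR to control in dendritic cells labelled WT (horizontal axis) against that in cells labelled cKO (vertical axis), for 1016 genes measured in both, with dotted lines at the limits and genes of the interferon list in red. The 21 genes higher in both lie at upper right, and Ccl17 and Plet1 are past the limit in opposite directions.

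The type I interferon list of 18 genes was higher after IR as a sum over all its members. Its UMIs went from 1140 to 2508 in cells labelled WT and from 506 to 2309 in cells labelled cKO. After scaling to depth, the log2 ratios of the sums were 2.02 (1.92 to 2.12) and 1.79 (1.66 to 1.94), and the other myeloid cells of the same tumors had 1.88 and 2.55. In cells labelled WT 10 of the 18 genes were measured, of which 8 were higher by the limit and none lower, beside 3.32% of all genes. The list had 9 measured genes in cells labelled cKO, of which 7 were higher, beside 4.22%. Members such as Ifit3 and Ifit2 reached 100 UMIs only through the IR group, so these counts support nothing. The list was chosen with earlier results of these data known.

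The interferon change was not of the same kind in every cell. Per 10000 gene UMIs, the list's UMIs in each cell ranged from 0 to 89.4 in control cells labelled WT (median 13.9) and from 1.15 to 326 in IR cells (median 37.3). Of the 45 IR cells, 34 lay above the control median and 11 above the control maximum. In cells labelled cKO the range was 0 to 319 in control (median 14.04) and 0 to 218 in IR (median 49.1), with 40 of 48 above the control median and none above the control maximum, which 1 cell set. This cell had 37 WT and 164 cKO hashtag UMIs, and its log2 ratio of 2.12 was the lowest among members labelled cKO. It also held 18 of the group's 31 Lyz2 UMIs, so its label is the least sure of them. The same cell held 145 of the group's 506 list UMIs (28.7%) and 55 of its 59 Rsad2 UMIs. Rsad2 accordingly had a ratio of 0.83 for IR in cells labelled cKO, and 3.53 without the top cell of each group, where the list's ratio of sums was 2.11. In the C1q-low cells the medians were 14.6 in control and 54.9 in IR cells labelled WT, and 10.3 and 52.4 in those labelled cKO.

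**Figure D5:**
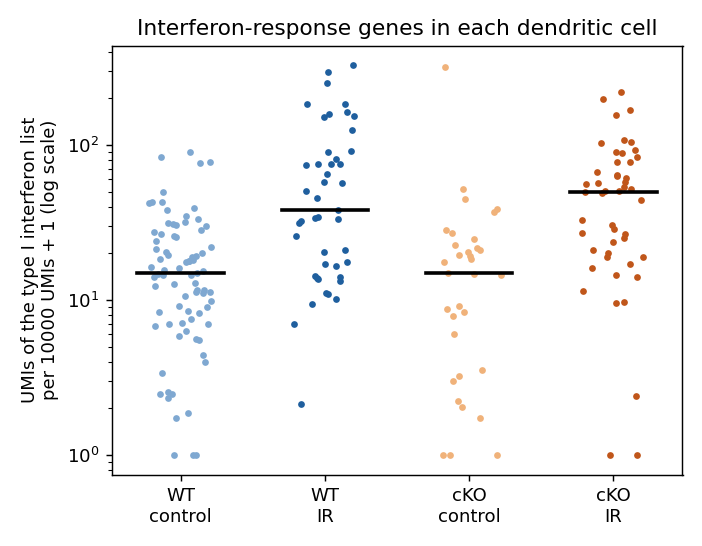
UMIs of the 18-gene type I interferon list per 10000 gene UMIs (plus 1, log axis) in each dendritic cell, 1 point a cell, for the 4 groups, with a line at each group's median. IR cells spread to higher values, with medians of 37.3 and 49.1 against 13.9 and 14.04, and 1 control cell labelled cKO stands at 319.

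Promoters of 4 of the 21 genes higher after IR in both labels are printed because they hold the letters of an interferon-stimulated response element, GAAANNGAAA, which is marked in capitals on either strand. The sequences come from RefSeq on GRCm38.p6, run 5′ to 3′ on the gene's strand and span 250 bases before to 50 bases after the start: Ifit3 chr19:34583279-34583578 (plus), Isg15 chr4:156200769-156201068 (minus), Slfn5 chr11:82951852-82952151 (plus) and Cxcl10 chr5:92348840-92349139 (minus).
Ifit3: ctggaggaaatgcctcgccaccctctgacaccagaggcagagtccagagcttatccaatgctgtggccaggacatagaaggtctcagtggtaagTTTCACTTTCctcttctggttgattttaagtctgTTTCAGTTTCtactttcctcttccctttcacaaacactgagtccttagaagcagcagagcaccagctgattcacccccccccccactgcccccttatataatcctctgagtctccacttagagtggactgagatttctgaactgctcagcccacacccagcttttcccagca
Isg15: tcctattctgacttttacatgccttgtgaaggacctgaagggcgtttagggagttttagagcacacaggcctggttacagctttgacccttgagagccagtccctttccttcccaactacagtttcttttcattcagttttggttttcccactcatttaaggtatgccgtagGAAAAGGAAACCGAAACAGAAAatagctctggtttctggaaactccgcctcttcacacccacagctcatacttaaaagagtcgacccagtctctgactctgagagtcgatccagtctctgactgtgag
Slfn5: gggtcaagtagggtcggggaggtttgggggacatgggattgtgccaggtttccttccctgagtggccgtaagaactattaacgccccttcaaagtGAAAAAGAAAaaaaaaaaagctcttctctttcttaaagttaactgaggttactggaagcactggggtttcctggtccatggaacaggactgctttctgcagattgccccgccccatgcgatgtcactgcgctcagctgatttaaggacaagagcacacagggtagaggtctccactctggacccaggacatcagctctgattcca
Cxcl10: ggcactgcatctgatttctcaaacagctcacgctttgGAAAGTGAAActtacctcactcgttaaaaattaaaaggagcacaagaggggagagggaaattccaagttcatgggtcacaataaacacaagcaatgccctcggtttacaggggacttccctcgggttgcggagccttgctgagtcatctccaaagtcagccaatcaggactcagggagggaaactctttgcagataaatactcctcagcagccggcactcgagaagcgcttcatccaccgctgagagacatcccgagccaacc

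Of the 21 genes, 16 matched a RefSeq promoter by symbol, and 9 of the 16 held the motif (56.3%), against 1079 of all 27025 genes with a promoter in the table (3.99%). Counted by promoter, 1131 of all 32851 held it (3.44%). Among the interferon list, 8 of 13 matched genes held it (61.5%). Rsad2 held 1 match, and Irf7 and Ifit2 held none in this window. The 21 genes were chosen from these same data, and genes such as Ifit3 passed the limit on UMIs mainly through the IR group. The comparison set was all genes with a promoter and not the measured genes, so these shares support nothing. A match is a description of letters and not a binding site, and overlapping matches were counted apart. Rtp4, Ly6a, Ifi204, Ifi27l2a and Snx2 had no entry.

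The genotype contrast in control tumors gave, over 1372 genes, 8 higher in cells labelled cKO (0.583%) and 13 lower (0.948%). The higher genes were led by Bcl2a1b, a survival factor of the Bcl2 family, at 1.47 (269 and 749 CPM), which shares near-identical copies such as Bcl2a1d and is uncertain for that reason. Pkib followed at 1.31, Plet1 at 1.21, Hmgb2 at 1.19, Ppt1 at 1.11 and BC028528 at 1.10. Without the highest cell, Plet1 was 0.34, Hmgb2 0.40 and Ppt1 0.29, and in the Cd209a gate Plet1 was -1.63. The lower genes were led by Lyz2 at -5.36, then Ccl5 at -3.71, Cebpb at -1.46, Rilpl2 at -1.45, Clec4n at -1.37 and Metrnl at -1.36. Of the 133 Ccl5 UMIs in cells labelled WT, 105 came from 1 cell, and without it the ratio was -1.52. Cebpb, a monocyte transcription factor, stood at 776 and 281 CPM and was -1.36 without the highest cell. Ly6c2 was lower as well (438 and 181 CPM), and 2 of 5 measured monocyte genes were lower by the limit, with the sum at -0.53 (-0.66 to -0.41). The macrophage list differed beside it by -0.86 (-1.16 to -0.58) and the proliferation list by 1.24 (0.93 to 1.57) as sums, and their part in these values was not tested. Of the 6 measured interferon genes 1 was past the limit, Irf7 at -1.10, and the list's sum differed by -0.02 (-0.18 to 0.13). This sum rested on the 1 control cell labelled cKO described above, whose hashtag ratio was the lowest among members labelled cKO. Without the top cell of each group it was -0.43 (-0.61 to -0.26), Rsad2 turned from 2.44 to -0.67 and Ifit2 from 0.69 to -1.27.

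In irradiated tumors the genotype contrast gave, over 1120 genes, 1 higher in cells labelled cKO (0.0893%) and 8 lower (0.714%). The total of 9 was 24 without possible doublets, 16 under the wide hashtag margin, 16 with 5 or more UMIs over the dendritic cell genes and 5 without the highest cell of each gene. The higher gene was Cd209d, a lectin gene near Cd209a on the same chromosome (chr8:3871824-3878555), at 72.3 and 206 CPM (1.48). It had 31 of 81 UMIs in 1 cell and a ratio of 0.79 without the highest cell. The highest cell labelled WT, which was kept, held 11 of 26. Reads of Cd209a and Cd209d could be split between these related genes. Eps8, Sfr1, Eif2ak2, Dnajc8 and Mycbp2 followed below the limit, from 0.96 to 0.73. The lower genes were led by Lyz2 at -6.45, Ccl2, the monocyte-attracting chemokine, at -2.42 (284 and 50.8 CPM), Plet1 at -1.61, Ccl17 at -1.53, Ifit1 at -1.40, Got1 at -1.28, Fn1 at -1.07 and, at the limit, Ccl4. Ccl17 was -0.45 without the highest cell, since 143 of 271 UMIs in cells labelled WT came from 1 cell. The chemokine list had 3 of 9 measured genes lower, with the sum at -0.72 (-0.81 to -0.64). Of these, Ccl2 was -1.96 and Ccl4 -0.55 without the highest cell. The interferon list had 1 of 11 measured genes past the limit and a sum that differed by -0.25 (-0.33 to -0.17). Without the top cell of each group the sum was -0.28 (-0.37 to -0.20), Rsad2 moved from -0.93 to -1.79 and Ifit2 from -0.73 to -1.07.

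The other lists rested on few measured genes. In cells labelled WT, 4 of 9 measured chemokines were higher by the limit after IR (sum 1.27), beside 3.32% of all genes. Without the highest cell Cxcl10 (1.97) and Ccl2 (1.51) stayed past the limit, and Ccl4 (0.64) and Ccl17 (-0.07) did not. Of 6 chemokines measured in cells labelled cKO, 1 was higher and 1 lower (sum 0.32), beside 4.22% and 0.688%. Of 3 measured suppression genes all 3 were past the limit after IR in cells labelled WT, beside the same 3.32%, with Arg1 at 2.04, Il1rn at 1.07 and Thbs1 at 1.07. Without the highest cell they stood at 0.999, 0.78 and 0.11, all below the limit, and 33 of the 67 Thbs1 UMIs in IR cells came from 1 cell. In cells labelled cKO none of the list reached 100 UMIs. Monocyte genes had 1 of 5 past the limit in cells labelled WT and 3 of 4 in cells labelled cKO, beside 3.32% and 4.22% of all genes, with sums at 0.69 (0.60 to 0.78) and 1.11. Of these 3, Ly6c2 was 0.79 and Plac8 0.87 without the highest cell. In cells labelled cKO the macrophage list moved beside it by 0.73 (0.42 to 1.05) and the pDC list, of plasmacytoid dendritic cells, by 1.25 (0.65 to 1.93) as sums, the NK list held 0 UMIs in control and 79 in IR members, and their part in the monocyte values was not tested. Cdkn1a, the p53 target that halts the cell cycle, stood at 699 and 1290 CPM in control and IR cells labelled WT and at 692 and 1364 CPM in those labelled cKO, and 0 of 2 measured p53 targets passed the limit. The proliferation list was lower after IR by 1.04 in cells labelled WT and by 3.27 in cells labelled cKO on the sum scale, yet 3 of 80, 2 of 33, 2 of 45 and 1 of 48 members held 3 or more of its UMIs, so these sums rest on few cells.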

How the data were processed

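The 4 gene-by-barcode matrices of UMI counts, made by the authors with Cell Ranger 6.0.1 on mm10 (GENCODE vM23) per the labels and the study's methods, were read as deposited, raw and not normalized. They hold gene and hashtag features and are not filtered for cells. The submitters' processing notes also name Seurat 4.0.6, and the study's methods name doublet removal, of which no calls were used here. Only the tumor control and tumor IR matrices were compared, with 87703837 and 81601307 gene UMIs.

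Barcodes with 500 or more gene UMIs, 200 or more genes, at most 25% mitochondrial UMIs and 20 or more hashtag UMIs were kept. A cell was labelled WT when hashtag B0301 held at least as many UMIs as B0302, and cKO when B0302 held at least 4 times B0301. Myeloid cells held 3 or more UMIs over Tyrobp, Fcer1g, Ctss, Cybb and Laptm5, fewer than 3 over T, NK and B cell genes and fewer than 5 over fibroblast and carcinoma genes. C1q-high cells had more than 5 C1q UMIs and Ccr7-positive cells 5 or more over the mature genes. The wide hashtag margin asked for B0301 at 4 or more times B0302 in cells labelled WT. No doublet caller was run on the members, and a proxy was tried as an alternative. The proxy left out the deepest barcodes and those with a large share of the lesser hashtag. For cells labelled WT its hashtag part is nearly the same cut as the wide margin.

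UMIs were summed per group. Each group's sum was put on a CPM scale, with 1 UMI added in proportion to the group's total, and the log2 of the ratio of the groups is the value given. A gene was measured with 100 or more UMIs over both groups and called at a log2 ratio of 1 or more in size. Intervals (95%) were exact conditional binomial for ratios, Clopper-Pearson for shares, Newcombe for differences of shares. With 1 pool per group no p-value was computed. Genes named are the 6 highest and 6 lowest of each contrast with an interval that leaves out 0, the 15 with the largest minimum ratio against other myeloid cells, and members of the gene lists. Members and lists were chosen with earlier results of these data known. There were 14 alternatives planned, and others were added later. Where the highest cell of a gene was left out, it was taken from the higher group only, and the group totals were kept. Gene positions came from GENCODE vM21 on mm10. Python 3.11.15, numpy 2.4.6, scipy 1.17.1, pandas 2.3.3 and matplotlib 3.10.9 were used. The ratio, limit and interval for genes were run on simulated group sums that had no spread between cells. The cell rule, hashtag labels, shares and gates were not run on simulated data.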

Additional observations from a re-analysis of the deposited data

Results flagged for a closer look

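Ccl17, a chemokine for T cells, differed between the hashtag labels under the same contrast: IR against control had a log2 ratio of 1.01 in cells labelled WT and -1.25 in cells labelled cKO. Without the highest cell of the higher group the ratios were -0.07 and -0.71. The lower groups kept theirs, with 50 of 248 UMIs in control cells labelled WT and 36 of 102 in irradiated cells labelled cKO. The shift is therefore partly set by this step. Of the 271 Ccl17 UMIs in irradiated cells labelled WT, 143 came from 1 cell, and within the Cd209a gate the ratio in cells labelled cKO was 0.24. Plet1 was likewise past the limit in opposite directions, at 1.04 in cells labelled WT and -1.77 in cells labelled cKO. Its ratios were 0.61 and -0.90 without the highest cell of the higher group. The highest cells kept in the lower groups held 40 of 170 and 30 of 68 Plet1 UMIs. Of the 178 Plet1 UMIs in control cells labelled cKO, 81 came from 1 deep cell of the Xcr1 and Clec9a gate. Within the Cd209a gate the ratio in cells labelled cKO was 1.28. Neither difference was tested, since each group was 1 pool.

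The blood libraries, which no comparison above uses, held cells that pass the same rule: 184 of 9622 barcodes in control blood (1.91%, interval 1.65 to 2.21) and 73 of 9237 in blood of irradiated mice (0.790%, 0.620 to 0.993). These cells had a median of 10850 and 13057 gene UMIs. Flt3 had a UMI in 66.3% and 71.2% of them, against 33.9% and 22.4% of the tumor members, and Cd209a in 92.4% and 93.2%. The rule used both genes, and depth differed between blood and tumor, so these shares are given as values only.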

How the results depend on the processing

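No paired analysis was possible because each group was 1 pool without replicate numbers. Over 16 settings, 14 of them planned, 748 values of named genes and of the interferon list's median were recomputed, of which 78 moved and 7 reversed. The medians could count as weaker or reversed but not as moved. The median of the measured interferon genes stayed between 1.69 and 2.52 for IR in cells labelled WT and between 0.854 and 2.0 in cells labelled cKO over 14 alternatives. The counts against other myeloid cells and the share of the Cd209a gate moved under none of the cell-selection alternatives run on them.

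A wide hashtag margin, and leaving out possible doublets, removed most members labelled WT. Both cut these cells at nearly the same hashtag ratio, so they are not separate checks. The share difference for IR in cells labelled WT was then -0.0598 and -0.120 points, and that between genotypes in control tumors was 0.759 and 0.661. Thinning to 3000 UMIs, which left 57 and 63 members, gave -0.955 for IR in cells labelled WT and 0.388 in cells labelled cKO. For cKO against WT in irradiated tumors, 16 genes passed the limit under the margin, 16 with 5 or more UMIs over the dendritic cell genes, 24 without possible doublets and 5 without the highest cell. For IR in cells labelled cKO, 22 passed without possible doublets, 24 in the Cd209a gate, 32 with cells weighted equally and 31 without the highest cell. For cKO against WT in control tumors, 13 passed in the Cd209a gate and 10 without the highest cell. With 50 UMIs per gene the 4 counts were 115, 117, 76 and 33, since more genes of low count were measured. Without possible doublets Hmgb2 turned to -0.52, Plet1 to -1.20 and Ppt1 to -0.042 for cKO against WT in control tumors. In the Cd209a gate Plet1 turned to -1.63 there, and Ccl17 to 0.239, Cst3 to 0.0589 and Plet1 to 1.28 for IR in cells labelled cKO. Beyond fewer cells or a lower minimum, the cause was not tested.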

Other observations

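The study's methods give mice of both sexes. Xist, which is transcribed from the inactive X of females, had 1 UMI over the 80 control members labelled WT and 0 UMIs in the other 3 groups, while Ddx3y of the Y chromosome had 39, 16, 17 and 17 UMIs in control members labelled WT and cKO and IR members labelled WT and cKO. Lyz1, the lysozyme gene next to Lyz2, had 2 and 0 UMIs in members labelled WT of control and irradiated tumors and 23 and 24 UMIs in members labelled cKO, and Lyz1 and Lyz2 are close copies whose reads may be hard to place.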
